A study of Rattus norvegicus with 62 samples.

Results

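The hippocampus and the frontal cortex of control rats were compared on the 13 control arrays of the series, 7 from the hippocampus and 6 from the frontal cortex (numbers 1, 2, 3, 5, 6 and 7), of 62 arrays in all. The contrast was chosen with earlier results of these data known. Within it the arrays were taken by their labels alone: every array described as control hippocampus or control frontal cortex, with no measured value used. All probe sets other than the 57 array controls entered, 31042 of 31099. The study gave male Wistar rats, 7 per group, phenytoin at 75 mg per kg, levetiracetam at 150 mg per kg or a control solution through a gastric tube 2 times a day for 90 days, and profiled RNA of 3 brain regions (hippocampus, frontal cortex, brainstem) on single-colour oligonucleotide arrays. The control rats therefore received no drug but underwent the same tube feeding for 90 days, and the labels give no genotype, transgene or age. The phenytoin and levetiracetam arrays of the same regions served as arrays in which the regional difference could be measured again, since they share no array with the control comparison.

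The hippocampus is a folded, older cortex in which the dentate gyrus, packed with granule cells, sends mossy fibres to the pyramidal neurons of the CA fields. The frontal cortex is layered neocortex, in which upper layers hold mainly neurons that project within the cortex and deep layers hold neurons that project to the thalamus, brainstem and spinal cord. Regional identity is held by transcription factors such as Prox1 in granule cells and Cux2 in upper-layer neurons, and the regions also differ in receptors, channels, peptides and the mix of interneurons and glia. Each array reads a whole dissected region, so a lower value can come from fewer cells of a type or from less RNA per cell, and these cannot be told apart.

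Values are log2 intensities after quantile normalization, with 16 added to the intensity before the logarithm; a difference of 1 is a 2-fold change on that scale, and the added 16 understates the change of dim genes. A positive difference means higher in the hippocampus, its error is a standard error, and adjusted p-values come from limma with Benjamini-Hochberg adjustment over 18625 probe sets, the brighter 60 percent. The spread between arrays was small, with a median residual SD of 0.19 in the hippocampus and 0.22 in the cortex, and arrays of a region correlated at 0.954 to 0.984 across probe sets. The hybridisation spike-in probe sets were higher on the hippocampal arrays (mean 10.86 ± 0.32, SD, n = 7) than on the cortical ones (10.08 ± 0.14, SD, n = 6; two-sided exact permutation test, p = 0.000583, 0.00233 adjusted over 4 measures), and the labelling spike-ins were too (7.36 ± 0.43 against 6.18 ± 0.17, exact p = 0.00117, adjusted 0.00233). The 3′ to 5′ ratios that measure RNA integrity gave log2 values of 0.24 and 0.20 for Gapdh (exact p = 0.496) and 1.30 and 1.32 for beta-actin (exact p = 0.849). The titles of the cortical arrays follow another style, in control and treated rats alike, so that region and set of arrays cannot be told apart in either. Control cortex array 2 stood out for striatal markers and array 6 for meningeal and choroid plexus markers, as described below. Among the treated rats phenytoin hippocampus array 7 stood apart in its region markers. The counts and correlation of the repeat in phenytoin rats, the count of probe sets passing the F test and the phenytoin differences of Acyp2 and Ptgs2 are given with and without it. All other phenytoin values of single genes include it. Cortex array 6 was also low for cortical genes such as Lamp5 and high for hippocampal ones such as Cpne7.

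Normal hippocampus and frontal cortex differed widely but mostly by small amounts. Of the 18625 probe sets, 3735 (20.1 percent) passed as higher in the hippocampus and 4238 (22.8 percent) as higher in the cortex. At least 2-fold differences were fewer and leaned to the hippocampus, with 719 probe sets (3.86 percent) higher there and 398 (2.14 percent) higher in the cortex. By gene, each taken from its brightest probe set, 1961 of 10337 (19.0 percent) were higher in the hippocampus and 2435 (23.6 percent) in the cortex, and 325 (3.14 percent) and 206 (1.99 percent) were at least 2-fold higher. A difference of at least 4-fold was reached by 40 genes in the hippocampus and 28 in the cortex. The median absolute difference over all genes was 0.25, and for 2132 genes (20.6 percent) the arrays of the regions did not overlap at all. The called shares of all genes, 19.0 percent hippocampal and 23.6 percent cortical, are the background for the counts of each list below. The lists were chosen with earlier results of these data known, so their counts are descriptions and not independent tests.

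**Figure D1:**
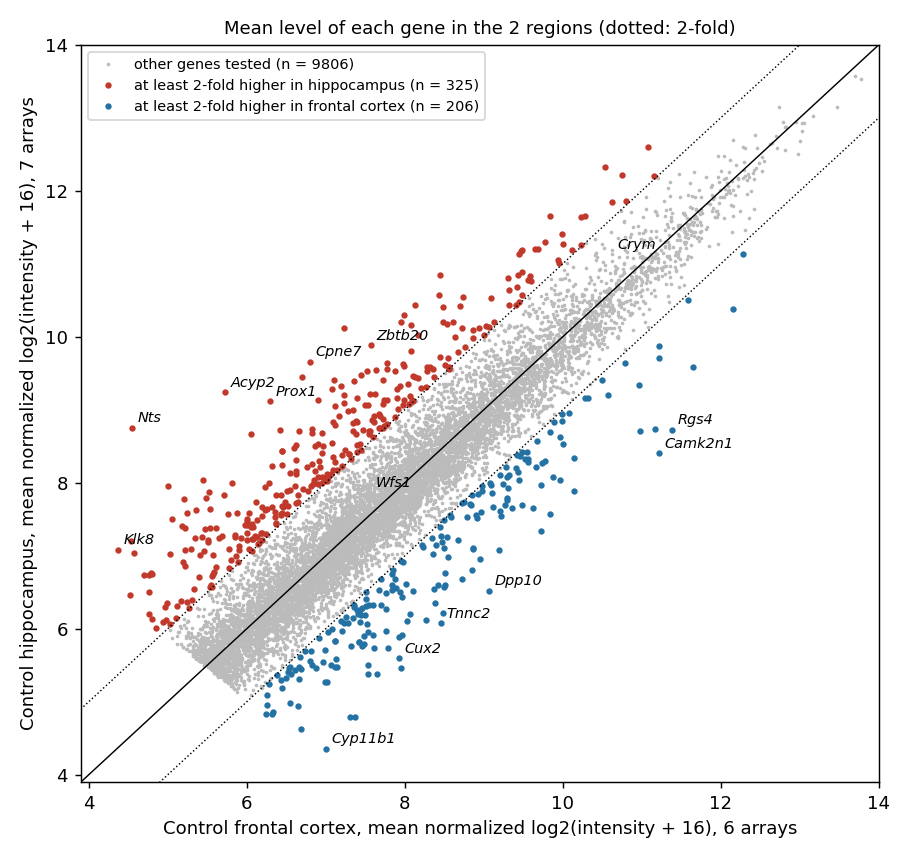
Mean normalized log2(intensity + 16) of 10337 genes in the control frontal cortex (horizontal, 6 arrays) and the control hippocampus (vertical, 7 arrays); solid line, equal levels; dotted lines, 2-fold. The 325 genes at least 2-fold higher in the hippocampus (red) reach farther from the diagonal than the 206 higher in the cortex (blue), with Nts farthest.

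Neurotensin led the hippocampal side. Nts, the precursor of the peptide neurotensin, read 8.50 to 9.32 (median 8.68) in the hippocampal arrays and 4.05 to 5.29 (median 4.51) in the cortical arrays, a difference of 4.20 ± 0.18 (adjusted p = 3.96e-12). Every hippocampal array was more than 3 log2 units above every cortical one. The control brainstem, measured on 7 arrays, lay between them at a mean of 7.37. Rgs4, a GTPase-accelerating protein that shortens signalling by G-protein-coupled receptors, was among the largest differences the other way, at 8.42 to 9.25 (median 8.78) in the hippocampal arrays and 11.13 to 11.57 (median 11.42) in the cortical arrays, a difference of -2.66 ± 0.12 (adjusted p = 8.36e-12). Both held in treated rats, where Nts differed by 3.59 in phenytoin rats and 4.16 in levetiracetam rats and Rgs4 by -2.34 in phenytoin rats and -3.09 in levetiracetam rats.

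The promoters of these genes are shown because they lead the 2 directions among genes with a promoter in the RefSeq table (build GRCr8), from 250 bases before the annotated start to 50 after it, on the gene's own strand. Capitals mark matches on either strand to any of 4 motifs. They are the TATA box, searched as TATAAA, an E-box bound by neuronal basic helix-loop-helix factors, searched as CAGATG, the AP-1 site, searched as TGAGTCA, and the cyclic AMP response element, searched as TGACGTCA.
Nts, chr7:39460839-39461138, minus strand: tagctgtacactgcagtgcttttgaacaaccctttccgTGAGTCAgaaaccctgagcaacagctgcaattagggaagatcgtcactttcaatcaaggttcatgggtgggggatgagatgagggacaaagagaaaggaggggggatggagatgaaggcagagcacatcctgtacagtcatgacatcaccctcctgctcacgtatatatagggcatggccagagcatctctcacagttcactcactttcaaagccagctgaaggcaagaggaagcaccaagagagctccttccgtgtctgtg
Rgs4, chr13:84475835-84476134, minus strand: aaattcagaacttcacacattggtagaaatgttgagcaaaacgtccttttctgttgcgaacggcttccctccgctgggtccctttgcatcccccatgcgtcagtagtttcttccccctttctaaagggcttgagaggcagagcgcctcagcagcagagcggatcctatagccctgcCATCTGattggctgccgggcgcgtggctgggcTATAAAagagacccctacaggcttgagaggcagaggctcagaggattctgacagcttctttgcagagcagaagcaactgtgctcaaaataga
The Nts window held TGAGTCA beginning 212 bases before the start, and the Rgs4 window held TATAAA beginning 42 bases before it and CATCTG, the reverse complement of the E-box, 74 bases before it. The AP-1 letters were present in 4.63 percent of 33465 promoter windows of the same length, the TATA box in 14.2 percent and the E-box in 16.6 percent. Of the 15 largest genes in each direction, 10 of the hippocampal and 12 of the cortical ones had a promoter in the table. The E-box was in 0 of the 10 and 3 of the 12, the TATA box in 1 and 2, the AP-1 site in 1 and 0, and the cyclic AMP response element, held by 1.83 percent of all windows, in 0 of either. These are letter matches in a short window, not measured binding.

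The 15 largest differences in each direction were taken only among genes whose regions did not overlap, so their separation follows from the choice. Behind Nts, the hippocampal side held several genes that were near the bottom of the scale in the cortex. Pkp2, a plakophilin of desmosomal junctions, read 7.60 to 8.30 (median 7.84) in the hippocampal arrays and 4.34 to 5.70 (median 5.06) in the cortical arrays, a difference of 2.95 ± 0.21 (adjusted p = 2.38e-09). Prox1, the homeobox factor that sets granule cell identity, read 8.89 to 9.43 (median 9.15) in the hippocampal arrays and 6.11 to 6.42 (median 6.32) in the cortical arrays, a difference of 2.82 ± 0.10 (adjusted p = 4.42e-13). Klk8, the secreted protease neuropsin, read 6.84 to 7.31 (median 7.06) in the hippocampal arrays and 4.14 to 5.08 (median 4.23) in the cortical arrays, a difference of 2.71 ± 0.15 (adjusted p = 1.37e-10). For these 3 genes no cortical array exceeded 6.42, and no hippocampal array of Prox1 or Pkp2 fell below 7.60. Htr5b, a serotonin receptor, differed by 2.67 ± 0.16 (adjusted p = 3.50e-10) and Gpr161, a receptor of the primary cilium that restrains Hedgehog signalling, by 2.61 ± 0.13 (adjusted p = 2.98e-11). Fibcd1, a receptor for acetylated sugars and a marker of CA pyramidal neurons, differed by 2.59 ± 0.14 (adjusted p = 6.93e-11). Cpne7, a calcium-dependent membrane-binding copine, differed by 2.86 ± 0.24 (adjusted p = 2.24e-08), although 1 cortical array read 8.31 against a cortical median of 6.53. The group also held the imprinted zinc finger factor Plagl1 (2.46 ± 0.25), the small GTPase Rem2, which inhibits calcium channels (2.45 ± 0.22), and Nkain3, which interacts with the sodium pump (2.36 ± 0.11). Of these 11 genes only Prox1 passed the test of region by treatment. Pkp2 differed by 2.15 in phenytoin rats and 3.10 in levetiracetam rats, Gpr161 by 2.88 in phenytoin rats and 2.89 in levetiracetam rats, and Fibcd1 by 2.93 in phenytoin rats and 2.66 in levetiracetam rats.

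The other 4 of the 15 largest hippocampal differences depended on treatment. Acyp2, an acylphosphatase, read 8.58 to 9.52 (median 9.42) in the hippocampal arrays and 4.82 to 7.10 (median 5.65) in the cortical arrays, a difference of 3.51 ± 0.27 (adjusted p = 5.84e-09). In phenytoin rats its difference was 0.29 ± 0.21 (adjusted p = 0.301) and in levetiracetam rats 3.93 ± 0.20. The phenytoin cortex arrays read 7.49 to 9.02 (median 8.03), all above the control cortex arrays. Klhl2, an adaptor of a ubiquitin ligase, differed by 2.89 ± 0.19 (adjusted p = 6.72e-10) in control rats, 0.40 in phenytoin rats and 3.20 in levetiracetam rats. Cttnbp2, a cortactin-binding protein of dendritic spines, differed by 2.74 ± 0.13 (adjusted p = 9.46e-12) in control rats, 0.50 in phenytoin rats and 3.19 in levetiracetam rats. Arid1b, a subunit of the BAF chromatin remodelling complex, differed by 2.39 ± 0.12 (adjusted p = 2.45e-11) in control rats, 0.55 in phenytoin rats and 2.92 in levetiracetam rats. The F test of region by treatment gave adjusted p-values of 4.23e-10, 2.57e-11, 9.07e-11 and 4.01e-11 in this order. For Klhl2 and Arid1b the other probe sets of the gene gave other sizes: a second Klhl2 probe set differed by 0.80 in control and 0.72 in phenytoin rats, and those of Arid1b by -0.13 and 1.93 in control rats. Prox1 also passed the F test (0.00623), but its difference stayed large, at 2.17 in phenytoin rats and 3.09 in levetiracetam rats.

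**Figure D2:**
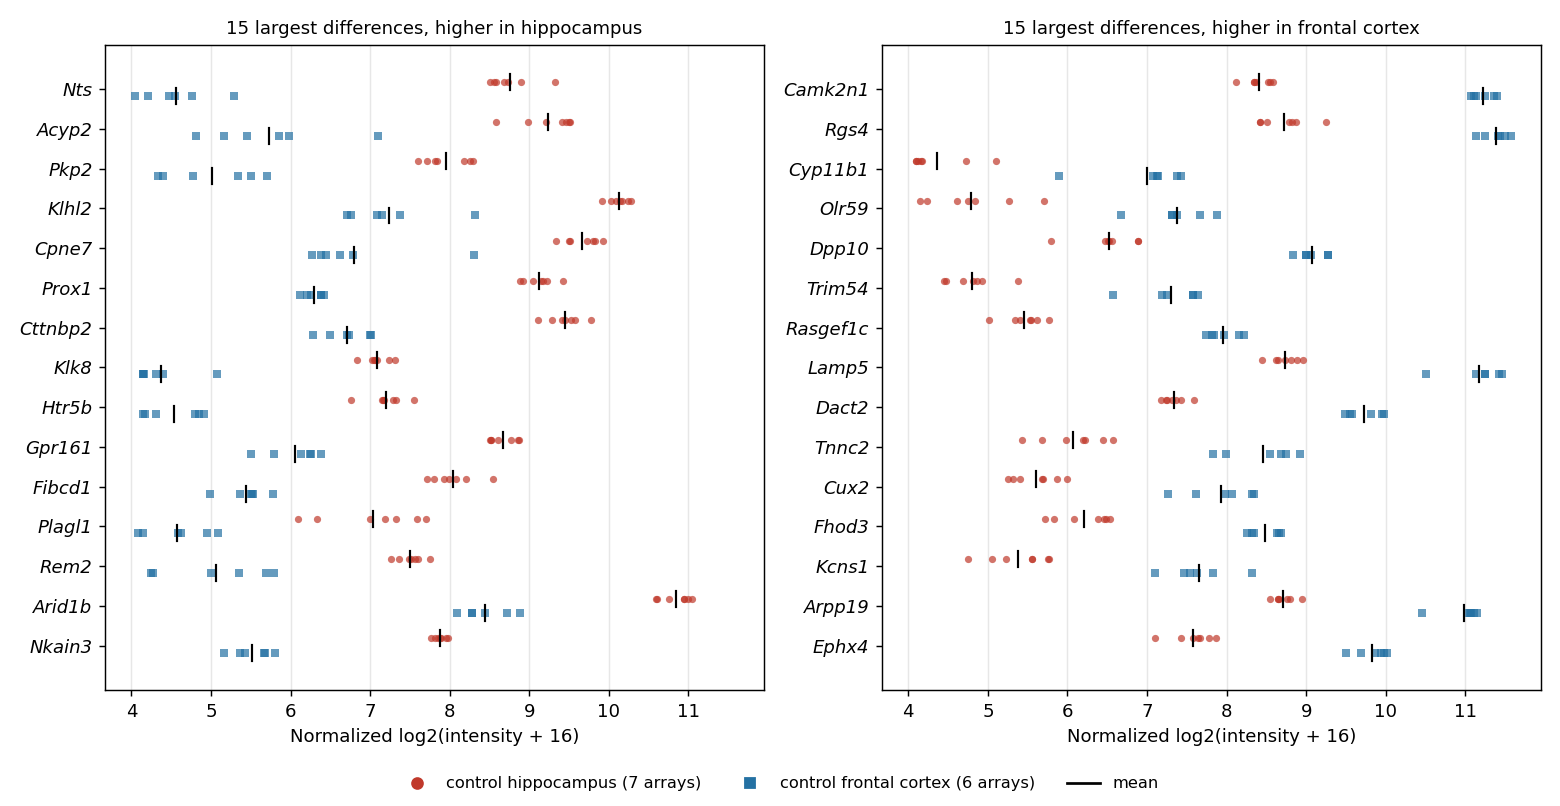
Normalized log2(intensity + 16) of the 15 genes with the largest non-overlapping differences in each direction, 1 point per array; red circles, 7 control hippocampus arrays; blue squares, 6 control frontal cortex arrays; black bars, means. The genes were chosen for regions that do not overlap; the single cortical points of Acyp2, Klhl2 and Cpne7 nearest to the hippocampus lie at 7.10, 8.32 and 8.31.

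In the cortex the largest difference belonged to Camk2n1, an inhibitor of the calcium/calmodulin-dependent kinase CaMKII. It read 8.12 to 8.58 (median 8.38) in the hippocampal arrays and 11.07 to 11.40 (median 11.19) in the cortical arrays, a difference of -2.81 ± 0.09 (adjusted p = 6.31e-14). A second, dimmer probe set of Camk2n1 differed by only -0.34, whereas both probe sets of Rgs4 gave large differences, -2.66 and -2.84. Dpp10, an auxiliary subunit of A-type potassium channels, read 5.80 to 6.89 (median 6.52) in the hippocampal arrays and 8.84 to 9.28 (median 9.03) in the cortical arrays, a difference of -2.55 ± 0.14 (adjusted p = 1.26e-10). Lamp5, a marker of upper-layer neurons and of some interneurons, read 8.45 to 8.97 (median 8.74) in the hippocampal arrays and 10.50 to 11.46 (median 11.25) in the cortical arrays, a difference of -2.44 ± 0.13 (adjusted p = 4.49e-11). Cux2, the homeobox factor of upper-layer neurons, read 5.26 to 5.99 (median 5.69) in the hippocampal arrays and 7.26 to 8.34 (median 8.02) in the cortical arrays, a difference of -2.33 ± 0.17 (adjusted p = 4.33e-09). All 4 of these genes were bright in the cortex, with medians of 8.02 or more. Arpp19, a regulator of protein phosphatase 2A, differed by -2.27 ± 0.10, with its other 2 probe sets at -1.67 and -1.96. Kcns1, a silent potassium channel subunit, differed by -2.27 ± 0.19.

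Several genes best known from muscle, adrenal or nose were among the cortical ones. Trim54, a RING finger protein of muscle, differed by -2.51 ± 0.18 (adjusted p = 3.92e-09), and Tnnc2, fast skeletal troponin C, by -2.38 ± 0.20 (adjusted p = 2.01e-08). Fhod3, a formin of heart muscle, differed by -2.27 ± 0.14. The probe set of Cyp11b1, an adrenal steroid hydroxylase with close relatives in the rat genome, read 4.10 to 5.11 (median 4.16) in the hippocampal arrays and 5.89 to 7.43 (median 7.13) in the cortical arrays, a difference of -2.65 ± 0.24 (adjusted p = 4.91e-08). That of Olr59, an olfactory receptor, differed by -2.58 ± 0.23 (adjusted p = 6.40e-08). Both belong to families of similar genes, so which gene these probe sets read is uncertain. The remaining cortical genes among the 15 were Dact2, a regulator of Wnt and TGF-beta signalling (-2.39 ± 0.10), Rasgef1c, of a family that activates Ras (-2.50 ± 0.13), and Ephx4, of the epoxide hydrolase family (-2.25 ± 0.12). Only Camk2n1 and Rasgef1c of the 15 passed the test of region by treatment, and their differences were -1.87 in phenytoin rats and -3.01 in levetiracetam rats, and -1.93 in phenytoin rats and -2.71 in levetiracetam rats.

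Transcription factors of the hippocampal fields were mostly higher in the hippocampus, with 11 of 15 measured members higher there and 3 higher in the cortex, a median difference of 0.84 against -0.05 over all genes. The list was set beside the background of 19.0 and 23.6 percent. Zbtb20, a zinc finger factor needed for CA field identity, read 9.79 to 10.03 (median 9.85) in the hippocampal arrays and 6.72 to 8.31 (median 7.70) in the cortical arrays, a difference of 2.31 ± 0.18 (adjusted p = 1.26e-08). All 6 of its probe sets were higher in the hippocampus, by 1.29 to 2.52. Zeb2, a repressor of the zinc finger and homeobox type, differed by 2.30 ± 0.16 (adjusted p = 2.47e-09) in control rats but by 0.63 in phenytoin rats. That small phenytoin value is of its brightest probe set: the next brightest differed by 1.77 in control and 1.55 in phenytoin rats, and the other 3 by 0.59 to 1.09 in control and 0.49 to 1.04 in phenytoin rats. The Lim homeobox factor Lhx9 differed by 1.98 ± 0.16, the mineralocorticoid receptor Nr3c2 by 1.86 ± 0.08 and the basic helix-loop-helix factors Neurod1 and Neurod6 by 1.85 ± 0.13 and 1.42 ± 0.13. Emx2, which patterns the medial cortex, differed by 1.05 ± 0.10. Smaller differences the same way were those of Id4 (0.84 ± 0.17), Nfia (0.51 ± 0.11), Lhx2 (0.47 ± 0.10) and Neurod2 (0.45 ± 0.12). Klf9, induced by glucocorticoid and thyroid hormone, was higher in the cortex (-0.56 ± 0.07), as were Meis1 (-0.64 ± 0.15) and the brightest probe set of Nfib (-0.37 ± 0.11). For the nuclear factor I genes the probe sets disagreed. A second of Nfib passed as hippocampal (0.70, adjusted p = 1.06e-06), and of the other 2 of Nfia 1 passed as cortical (-0.36, adjusted p = 0.0255) and 1 did not pass (-0.11), so neither gene has a settled direction. The Wnt effector Lef1 did not pass (0.14 ± 0.13, adjusted p = 0.394).

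Markers of the principal neurons of the hippocampus followed the same direction, but not all of them. Of 14 dentate granule cell markers measured, 8 were higher in the hippocampus and 4 in the cortex, with a median of 0.60. Beside Prox1, the largest were Rfx3, a factor of ciliary genes (1.74 ± 0.12), the Notch co-activator Maml2 (1.71 ± 0.13) and the synaptic C1q-like protein C1ql3 (1.52 ± 0.08). The Npy receptor Npy1r (-0.70 ± 0.11), the syntaxin-binding Stxbp6 (-0.52 ± 0.08), Sipa1l2 (-0.49 ± 0.09) and calbindin, Calb1 (-0.30 ± 0.07), were higher in the cortex. Summed over the 17 list genes on the array, the intensity was 7010 to 8126 in the hippocampal arrays and 4765 to 5383 in the cortical ones, without overlap. This and the later sums are of intensities as deposited, not quantile normalized. They weigh the brightest members most, so a sum that separates the regions does not show that all members differ. Among 23 CA pyramidal neuron markers, 14 were higher in the hippocampus and 5 in the cortex, with a median of 0.59. Neurotrophin 3, Ntf3, differed by 2.27 ± 0.20, the synaptic scaffold Homer3 by 2.17 ± 0.13 and the copine Cpne4 by 2.04 ± 0.10. On the cortical side stood Coch, an extracellular matrix protein first known from the inner ear (-2.04 ± 0.18), Cadps2, which primes dense-core vesicles (-1.08 ± 0.11), the secreted Dkk3 (-0.58 ± 0.14) and the proteoglycan Spock1 (-0.44 ± 0.12). The summed CA list overlapped between regions, at 15629 to 19300 in the hippocampus and 14080 to 16398 in the cortex.

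Cortical layer markers were divided. Of 16 upper-layer markers, 8 were higher in the cortex and 5 in the hippocampus, but all 4 with at least a 2-fold difference were cortical. Mef2c, a factor of excitatory neuron maturation, read 9.39 to 9.74 (median 9.61) in the hippocampal arrays and 11.39 to 11.92 (median 11.67) in the cortical arrays, a difference of -2.05 ± 0.09 (adjusted p = 3.96e-12). Cux1, the relative of Cux2, differed by -1.28 ± 0.12. The members higher in the hippocampus moved less, such as the adhesion protein Nectin3 (0.68 ± 0.13), the factor Pou3f3 (0.55 ± 0.08) and Rasgrf2 (0.44 ± 0.14). The summed upper-layer list separated the regions, at 7844 to 9178 in the hippocampus and 13306 to 14772 in the cortex. Of 20 deep-layer markers, 8 were higher in the cortex and 5 in the hippocampus. Hs3st2, a heparan sulfate sulfotransferase (-2.04 ± 0.11), the cell-cycle regulator Rprm (-1.91 ± 0.15), the forkhead factor Foxp2 (-1.74 ± 0.15) and Tox (-1.32 ± 0.16) were cortical. Bcl11b, a zinc finger factor of subcerebral projection neurons that granule and CA cells also express, went the other way at 10.26 to 10.64 (median 10.42) in the hippocampal arrays and 7.80 to 8.70 (median 8.04) in the cortical arrays, a difference of 2.31 ± 0.12 (adjusted p = 2.98e-11). Its other 2 probe sets were 1.42 and 2.54 higher in the hippocampus. Nr4a2 (1.14 ± 0.20), Sulf2 (0.55 ± 0.10) and the thyroid hormone-binding Crym (0.51 ± 0.07) were hippocampal too, and the summed deep-layer list overlapped.

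Of 17 genes of cortical area and neocortical identity, 9 were higher in the hippocampus and 5 in the cortex, with a median of 0.34. The neocortical factors Tbr1 (-1.27 ± 0.17) and Emx1 (-0.86 ± 0.11) and the guidance ligand Efna5 (-1.69 ± 0.17) were higher in the cortex, while Bhlhe22 (1.70 ± 0.12) and the nuclear receptor Nr2f2, also called COUP-TFII (2.05 ± 0.22), were higher in the hippocampus. In the cortex 1 array read 7.95 for Nr2f2 against a median of 6.49.

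**Figure D3:**
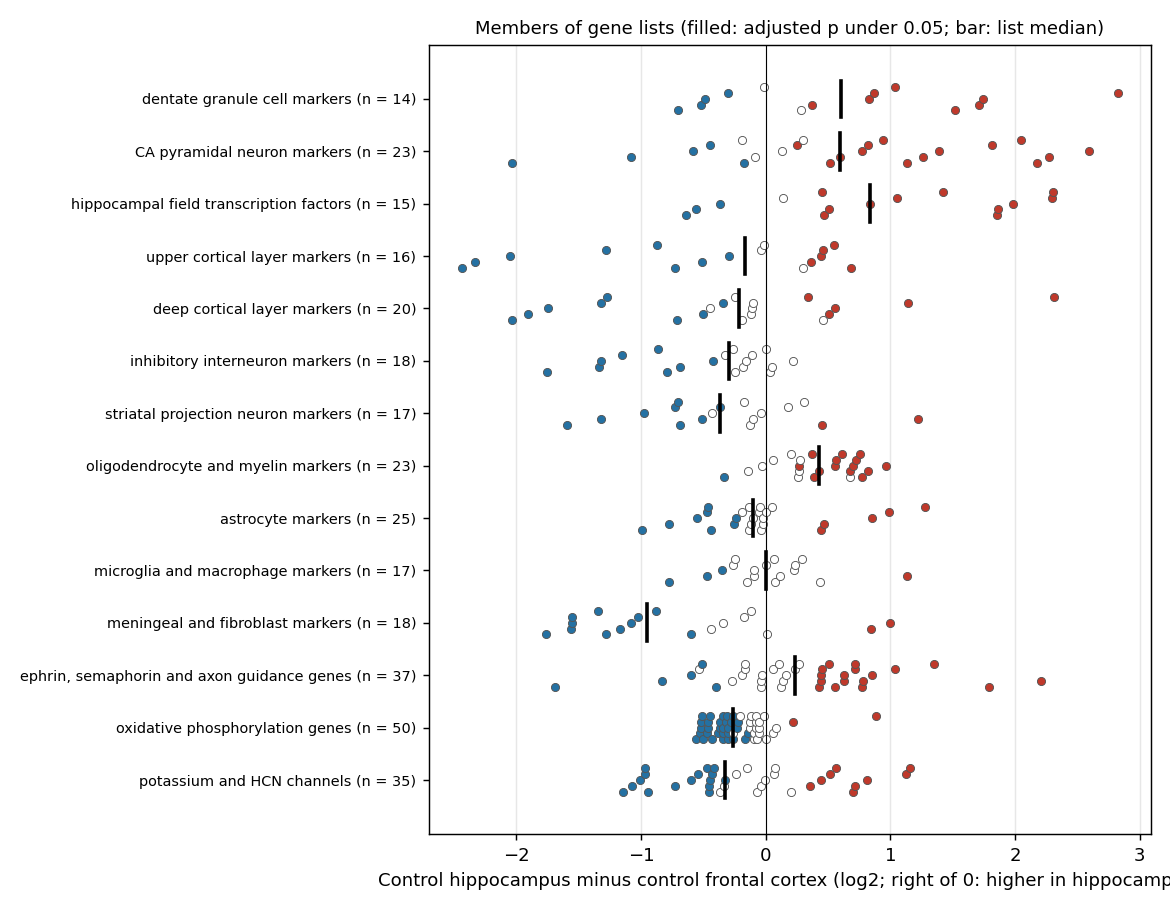
Difference between control hippocampus and control frontal cortex (log2, 7 and 6 arrays; right of 0, higher in hippocampus) of the tested members of 14 gene lists, 1 point per gene; filled points, adjusted p under 0.05; black bars, list medians. The median is 0.84 for the hippocampal field transcription factors and -0.95 for the meningeal and fibroblast markers, and the filled oxidative phosphorylation genes lie close together left of 0.

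Interneuron markers were higher in the cortex wherever they passed, 8 of 18 measured, and 0 were higher in the hippocampus. Vip, the peptide of a class that inhibits other interneurons, read 7.83 to 8.04 (median 7.98) in the hippocampal arrays and 9.48 to 9.97 (median 9.72) in the cortical arrays, a difference of -1.76 ± 0.08 (adjusted p = 1.82e-11). Pvalb, the calcium buffer of fast-spiking basket cells, read 8.49 to 8.88 (median 8.62) in the hippocampal arrays and 8.98 to 10.48 (median 10.07) in the cortical arrays, a difference of -1.34 ± 0.17 (adjusted p = 4.74e-06). Tac1, the substance P precursor, differed by -1.32 ± 0.20 and Cck, cholecystokinin, which excitatory neurons also express, by -1.15 ± 0.07. The summed list was 6678 to 7831 in the hippocampal arrays and 11052 to 15124 in the cortical arrays, without overlap. With the 4 arrays of lowest estimated weight left out (control hippocampus 1, control cortex 5, 6 and 7), a setting added after the data were seen, 10 and 0 members passed.

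Markers of neighbouring tissue were also higher in the cortex. Of 17 striatal projection neuron markers tested, 8 were higher in the cortex and 2 in the hippocampus, with a median of -0.37, and 9 list genes on the array were too dim to test. Summed, the list was 3526 to 3867 in the hippocampal arrays and 3855 to 7033 in the cortical arrays, where array 2 was highest. Scn4b, a sodium channel beta subunit rich in striatum, differed by -1.59 ± 0.23 and Rasd2, a striatal GTPase, by -0.98 ± 0.14, whereas the opioid precursor Pdyn, also made by granule cells, was higher in the hippocampus (1.22 ± 0.10). Without cortical array 2 the counts were 8 and 3. Of 18 meningeal and fibroblast markers, 11 were higher in the cortex and 2 in the hippocampus, with a median of -0.95, the lowest of the 37 lists. Ptgds, prostaglandin D synthase of the leptomeninges, read 10.09 to 11.21 (median 10.26) in the hippocampal arrays and 11.69 to 12.70 (median 12.14) in the cortical arrays, a difference of -1.76 ± 0.17 (adjusted p = 1.07e-07). The growth factor-binding Igfbp2 differed by -1.56 ± 0.16, the sulfate transporter Slc13a4 by -1.56 ± 0.16 and the small proteoglycan Ogn by -1.55 ± 0.17, while Dcn (0.99 ± 0.18) and Lum (0.85 ± 0.22) were higher in the hippocampus. Summed, this list was 2283 to 3865 in the hippocampal arrays and 5309 to 11176 in the cortical arrays, highest in array 6, without overlap. The bright Ptgds weighs heavily in this sum. Red blood cell genes moved the same way: 2 of 3 tested were higher in the cortex and 0 in the hippocampus, the beta-globin Hbb (-0.87 ± 0.14) and Alas2 of heme synthesis (-0.43 ± 0.17), while an alpha-globin gene did not pass. Their sum over 5 genes was 1112 to 2027 in the hippocampal arrays and 2494 to 3980 in the cortical arrays, without overlap. Alas2 no longer passed without hippocampal array 1, 2, 4, 5 or 7 or cortical array 2, 5 or 6, which leaves 1 of 3. The part of these tissues in the other results was not tested.

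Choroid plexus, which lies beside the hippocampus in the ventricle, gave uneven values. Of 7 markers tested, 3 were higher in the hippocampus and 1 in the cortex, and 10 more were too dim to test. Its carrier protein Ttr read 6.33 to 8.68 (median 7.69) in the hippocampal arrays and 5.27 to 8.38 (median 5.48) in the cortical arrays, a difference of 1.55 ± 0.46 (adjusted p = 0.0113), with cortical array 6 inside the hippocampal range and a difference of 2.02 without it. Msx1 differed by 0.71 ± 0.14 and the folate receptor Folr1 by 0.49 ± 0.19, which no longer passed without hippocampal array 1, 2, 3 or 7 or cortical array 2, 3, 5 or 6. The cortical one was the growth factor Igf2 (-1.02 ± 0.20), which meninges also make. Of 7 ependymal cell markers, 3 were higher in the hippocampus, among them Dynlrb2 of cilia (0.97 ± 0.14), and 1 in the cortex. Of the glial lists, oligodendrocyte and myelin genes leaned most to one side: 14 of 23 were higher in the hippocampus and 1 in the cortex, with a median of 0.43. The cytoskeletal Ermn differed by 0.96 ± 0.15, the tight junction protein Cldn11 by 0.82 ± 0.09, the hydroxylase of myelin lipids Fa2h by 0.77 ± 0.12 and the myelin regulatory factor Myrf by 0.76 ± 0.14. None of them reached 2-fold, and the summed list overlapped, at 22680 to 27980 in the hippocampus and 16806 to 27177 in the cortex. Astrocyte genes were mixed, with 5 of 25 higher in the hippocampus (20 percent) and 8 in the cortex (32 percent). These shares stand against 19.0 and 23.6 percent of all genes, and the list median was -0.10. The summed astrocyte list overlapped, at 45304 to 54380 in the hippocampus and 43980 to 60693 in the cortex. Gfap, the intermediate filament, read 11.06 to 11.45 (median 11.28) in the hippocampal arrays and 9.50 to 10.86 (median 9.90) in the cortical arrays, a difference of 1.28 ± 0.15 (adjusted p = 1.65e-06), and the water channel Aqp4 differed by 0.99 ± 0.11 and angiotensinogen, Agt, by 0.85 ± 0.11. Among the 8 cortical ones was the inter-alpha-trypsin inhibitor gene Itih3 (-0.77 ± 0.11). Of 17 microglial markers, 1 was higher in the hippocampus (5.9 percent) and 3 in the cortex (17.6 percent), both below the shares of all genes. These counts ranged from 1 to 2 and from 1 to 5 with single arrays left out, among them cortical array 6 (2 and 1) and array 3. Without the 4 arrays of lowest weight they were 7 and 1. Of 21 vascular markers 2 were hippocampal (9.5 percent) and 3 cortical (14.3 percent), and 1 was hippocampal without hippocampal array 2, 6 or 7 or cortical array 7.

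Glutamate receptor genes passed in both directions at shares not far from those of all genes (19.0 percent hippocampal, 23.6 percent cortical). Of 17 AMPA and kainate receptor genes, 5 were higher in each region (29.4 percent). Gria1, the AMPA receptor subunit of hippocampal plasticity, read 9.35 to 9.59 (median 9.50) in the hippocampal arrays and 7.88 to 8.31 (median 8.16) in the cortical arrays, a difference of 1.36 ± 0.08 (adjusted p = 4.04e-10). The auxiliary subunits split: Cnih2 (1.42 ± 0.08) and Neto1 (1.79 ± 0.17) were hippocampal, whereas Cacng3 (-0.77 ± 0.10), Cacng2 (-0.66 ± 0.10) and Neto2 (-0.79 ± 0.13) were cortical. Neto1 differed by 0.39 in phenytoin rats and 2.29 in levetiracetam rats. The kainate receptor subunit Grik4 differed by 0.94 ± 0.12 and the AMPA receptor subunit Gria4 by -0.59 ± 0.12. Of 13 NMDA and metabotropic receptor genes, 2 were hippocampal (15.4 percent), Grin2a (1.72 ± 0.17) and Grm5 (0.65 ± 0.18), and 4 cortical (30.8 percent), led by Grm4 (-0.93 ± 0.20) and the scaffold Homer1 (-0.77 ± 0.08). Without cortical array 6 these counts were 4 and 4.

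GABA-A receptor subunits passed in both directions. Gabra5, of the extrasynaptic receptors of CA pyramidal cells, read 10.04 to 10.43 (median 10.21) in the hippocampal arrays and 8.81 to 9.33 (median 9.16) in the cortical arrays, a difference of 1.08 ± 0.09 (adjusted p = 2.42e-08), and Gabra2 differed by 1.31 ± 0.17. Gabrd, the delta subunit of tonic inhibition, read 7.25 to 7.88 (median 7.65) in the hippocampal arrays and 8.57 to 9.28 (median 8.92) in the cortical arrays, a difference of -1.36 ± 0.12 (adjusted p = 4.10e-08), and Gabra3 (-1.23 ± 0.18), Gabrb2 (-1.15 ± 0.09) and Gabra4 (-0.53 ± 0.13) were cortical too. These 6 were the called members of 10 measured GABA-A and GABA-B receptor genes, 2 hippocampal (20 percent) and 4 cortical (40 percent).

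Ion channel genes passed in both directions. Their cortical shares were above that of all genes (23.6 percent), while their hippocampal shares were not far from it (19.0 percent). Of 35 potassium and HCN channel genes, 16 were higher in the cortex (45.7 percent) and 9 in the hippocampus (25.7 percent), with a median of -0.33. The A-type channel Kcna4 differed by 1.16 ± 0.12, the beta subunit gene Kcnab1 by 1.12 ± 0.12 and Kcnd3 by 0.72 ± 0.10. On the cortical side stood the silent subunit Kcnv1 (-1.14 ± 0.10), the inward rectifier Kcnj9 (-1.07 ± 0.15) and the leak channel Kcnk3 (-0.97 ± 0.15). Sodium and calcium channel genes gave 9 cortical (39.1 percent) and 6 hippocampal (26.1 percent) of 23. Cacna2d1, the calcium channel subunit that binds gabapentin, read 7.45 to 8.41 (median 7.87) in the hippocampal arrays and 9.64 to 10.46 (median 10.26) in the cortical arrays, a difference of -2.25 ± 0.15 (adjusted p = 8.79e-10). Scn1a, the sodium channel prominent in fast-spiking interneurons, differed by -1.48 ± 0.17 and the calcium channel subunit Cacnb4 by -1.42 ± 0.15. Scn3b, a sodium channel beta subunit, went the other way at 1.41 ± 0.11, as did the T-type channel Cacna1h (0.98 ± 0.15) and the L-type channel Cacna1c (0.55 ± 0.10).

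Peptide genes included Nts, the largest difference of all. Of 21 neuropeptide precursors, 7 were hippocampal (33.3 percent) and 10 cortical (47.6 percent), or 6 cortical without the 4 arrays of lowest weight. After Nts, secretogranin Scg2 (1.70 ± 0.08) and neuromedin B, Nmb (1.70 ± 0.17), were hippocampal. Neuropeptide Y, Npy, was cortical at -0.86 ± 0.12, beside Vip, Tac1 and Cck. The gene of the cholecystokinin B receptor, Cckbr, was also higher in the cortex (-1.70 ± 0.25). Among 36 monoamine, acetylcholine and peptide receptors, 8 were hippocampal (22.2 percent) and 10 cortical (27.8 percent), close to the 19.0 and 23.6 percent of all genes. Htr2a, the serotonin receptor bound by hallucinogens, read 5.18 to 5.53 (median 5.37) in the hippocampal arrays and 6.74 to 7.91 (median 7.64) in the cortical arrays, a difference of -2.16 ± 0.15 (adjusted p = 2.38e-09). The serotonin receptor genes Htr4 (2.04 ± 0.18) and Htr2c (1.40 ± 0.12), like Htr5b, were higher in the hippocampus. Noradrenaline receptors split between Adra1b (-2.05 ± 0.18), cortical, and Adra1d (0.62 ± 0.09), hippocampal. The somatostatin receptor Sstr1 was cortical (-1.25 ± 0.08).

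Hormone-regulated factors leaned to the hippocampus, with 11 of 23 nuclear receptor and steroid pathway genes higher there (47.8 percent) and 7 in the cortex (30.4 percent). Nr3c2, which binds corticosterone with high affinity, read 9.44 to 9.76 (median 9.66) in the hippocampal arrays and 7.59 to 8.03 (median 7.82) in the cortical arrays. The orphan receptor Nr4a3 differed by 2.01 ± 0.16 and the retinoid receptor Rxrg by 1.25 ± 0.17. The progesterone receptor Pgr (-0.76 ± 0.14), the orphan receptor Rorb (-0.73 ± 0.16) and the thyroid hormone receptor Thrb (-0.65 ± 0.10) were cortical. Activity-regulated genes gave 6 hippocampal (30 percent) and 8 cortical (40 percent) of 20. Ptgs2, the inducible cyclooxygenase, read 8.14 to 8.60 (median 8.27) in the hippocampal arrays and 6.15 to 7.08 (median 6.53) in the cortical arrays, a difference of 1.69 ± 0.14 (adjusted p = 2.38e-08), and Bdnf, the neurotrophin, differed by 0.82 ± 0.12. Dusp1, a phosphatase of MAP kinases (-1.06 ± 0.14), and the immediate early factor Egr1 (-0.67 ± 0.15) were cortical. As deposited, without quantile normalization, 5 members in place of 8 passed as cortical.

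Calcium signalling genes passed as cortical more often than all genes did. Of 21 calmodulin kinase, calcineurin and protein kinase C genes, 11 were higher in the cortex (52.4 percent, against 23.6 of all genes) and 5 in the hippocampus (23.8 percent, against 19.0), with a median of -0.51. Camk2d (-1.10 ± 0.20), the calcineurin regulator Rcan2 (-0.99 ± 0.10), Camkk2 (-0.96 ± 0.15) and Camk4 (-0.78 ± 0.15) were cortical, in the direction of the inhibitor Camk2n1. Camk2b (0.87 ± 0.09) and Prkce (0.83 ± 0.13) were hippocampal. Of 21 calcium-binding protein genes, 9 were cortical, led by Cabp1 (-1.40 ± 0.12) and Pvalb, 9 did not pass and 3 were hippocampal, Calml4 (1.95 ± 0.20), Necab2 (1.26 ± 0.10) and hippocalcin, Hpca (0.69 ± 0.10).

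Guidance and patterning genes leaned to the hippocampus. Of 37 ephrin, semaphorin and axon guidance genes, 17 were higher there (45.9 percent, against 19.0 of all genes) and 5 in the cortex (13.5 percent, against 23.6). Their median was 0.23. The semaphorin receptor Nrp1 read 9.15 to 9.42 (median 9.33) in the hippocampal arrays and 6.69 to 7.38 (median 7.08) in the cortical arrays, a difference of 2.21 ± 0.10 (adjusted p = 8.36e-12), and its relative Nrp2 differed by 1.79 ± 0.14, the ephrin Efnb3 by 1.35 ± 0.15 and the semaphorin Sema5a by 1.04 ± 0.12. The receptor Ephb6 was cortical (-0.83 ± 0.16), beside Efna5. Of 37 Wnt, BMP and fibroblast growth factor genes, 15 were hippocampal (40.5 percent) and 9 cortical (24.3 percent, near the share of all genes). Wnt4 read 8.29 to 8.65 (median 8.50) in the hippocampal arrays and 6.49 to 6.74 (median 6.56) in the cortical arrays, a difference of 1.87 ± 0.09 (adjusted p = 1.54e-11). The receptor Fgfr1 differed by 1.38 ± 0.09, the Wnt antagonist Frzb by 1.39 ± 0.19 and the BMP antagonist Chrd by 1.15 ± 0.11, whereas the activin subunit Inhba was cortical (-0.87 ± 0.12). The protocadherin Pcdh19 (1.67 ± 0.18) led 6 hippocampal of 16 cadherin genes (37.5 percent). Against them stood 5 cortical (31.25 percent), or 3 cortical without hippocampal array 2 or 3 or cortical array 1 or 3. Of 27 trophic factor genes, 9 were hippocampal (33.3 percent), with the receptor Kit at 1.18 ± 0.19. The 8 cortical ones (29.6 percent) were led by Gfra2, a receptor of the neurturin pathway (-2.03 ± 0.14).

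Synaptic vesicle and mitochondrial genes leaned to the cortex by small amounts. Of 32 vesicle genes, 12 were cortical (37.5 percent) and 2 hippocampal (6.25 percent), or 1 hippocampal without hippocampal array 4, 6 or 7 or cortical array 7. Stx1a, the syntaxin of vesicle fusion, stood out at 7.83 to 8.32 (median 8.02) in the hippocampal arrays and 9.76 to 10.10 (median 9.98) in the cortical arrays, a difference of -1.93 ± 0.09 (adjusted p = 9.46e-12), with -1.94 from its other probe set. Synaptophysin, Syp, differed by -0.69 ± 0.08 and Syt5 by -0.75 ± 0.08, against Cplx2 at 0.70 ± 0.09. Of 50 oxidative phosphorylation genes, 30 were cortical (60 percent, where 23.6 percent of all genes were) and 2 hippocampal, with a median of -0.26. Sdhb of complex II (-0.56 ± 0.08), Atp5mg of ATP synthase (-0.53 ± 0.08), Cox7c of complex IV (-0.52 ± 0.07) and Ndufc2 of complex I (-0.52 ± 0.08) were the largest of the cortical ones. The hippocampal ones were Cox5a of complex IV, whose difference was larger than any of these (0.88 ± 0.13), and Ndufb10 of complex I (0.22 ± 0.07). As deposited, 33 passed as cortical and 1 as hippocampal, without Ndufb10. Of 31 ribosomal protein genes, 7 were hippocampal (22.6 percent) and 8 cortical (25.8 percent), near the shares of all genes. These counts moved to 2 and 6 as deposited, to 8 and 4 without cortical array 6, and to 16 and 3 without the 4 arrays of lowest weight. Of 20 pan-neuronal genes, 7 were cortical (35 percent) and 3 hippocampal (15 percent). The RNA-binding Elavl4 differed by -1.29 ± 0.08, the growth cone protein Gap43 by -0.82 ± 0.08 and Map2 of dendrites by 0.97 ± 0.11. Of 12 progenitor and neurogenesis genes, 5 were cortical (41.7 percent) and 3 hippocampal (25 percent). Doublecortin, Dcx, of newborn neurons differed by -0.74 ± 0.18 and Stmn1 by -0.84 ± 0.07. Of 13 thalamus markers, 3 were hippocampal (23.1 percent) and 4 cortical (30.8 percent), against 19.0 and 23.6 percent of all genes.

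The regional contrast was measured again in treated rats, whose cortical arrays share the other title style. This repeat therefore cannot separate region from set of arrays. In levetiracetam rats 716 of the 719 hippocampal 2-fold probe sets and 394 of the 398 cortical ones passed in the same direction. In phenytoin rats 497 of 719 and 373 of 398 did, or 521 and 383 without hippocampus array 7. Of all 18625 probe sets, 4156 passed as hippocampal and 4755 as cortical in levetiracetam rats. The phenytoin rats gave 3367 and 3855, or 3814 and 4239 without array 7. Across the 18625 probe sets the difference in control rats correlated with that in levetiracetam rats at r = 0.936 and with that in phenytoin rats at r = 0.717 (0.734 without array 7), given as a description since genes are not independent. The F test of region by treatment passed for 2695 probe sets (14.5 percent), or 2598 without array 7, and for 1587 genes (15.4 percent). Among the 2-fold genes it passed for 155 of the 325 hippocampal and 22 of the 206 cortical ones. Like Acyp2, several of them had a large difference in control and levetiracetam rats and a small one in phenytoin rats. Ptgs2 differed by -0.40 in phenytoin rats and 1.97 in levetiracetam rats, the transcription factor Jund by 0.77 in control rats, -0.30 in phenytoin rats and 0.86 in levetiracetam rats, and the microglial receptor Gpr34 by 1.13 in control rats, 0.04 in phenytoin rats and 1.50 in levetiracetam rats. For Ptgs2 the phenytoin cortex arrays read 7.68 to 8.77 (median 8.29), and for Gpr34 6.43 to 7.57 (median 6.97). Without phenytoin hippocampus array 7 the phenytoin difference was 0.35 for Acyp2 and -0.15 for Ptgs2. The drug arrays are other rats on other arrays, and treatment and set of arrays cannot be told apart.

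**Figure D4:**
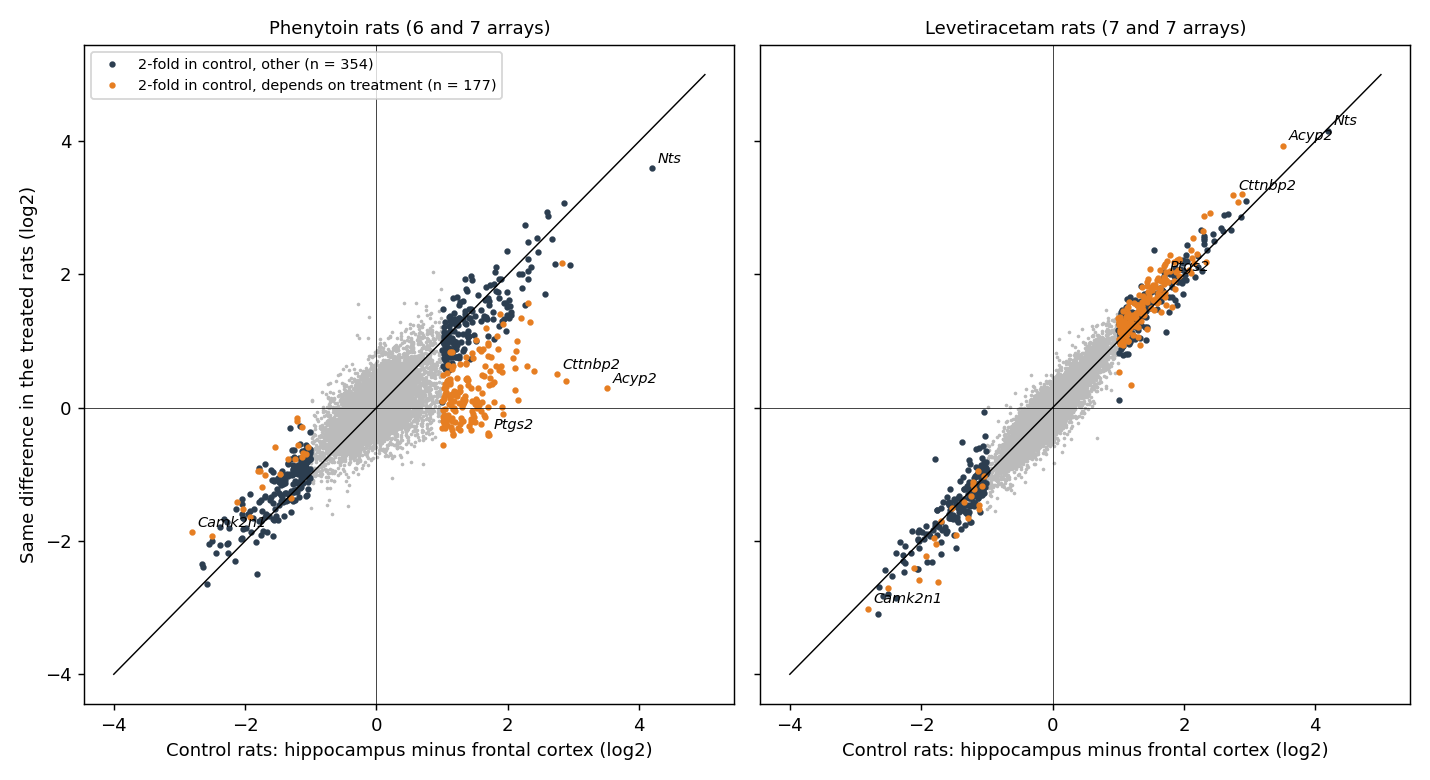
Difference between hippocampus and frontal cortex (log2) of 10337 genes in control rats (horizontal) against phenytoin rats (left, 6 and 7 arrays) and levetiracetam rats (right, 7 and 7 arrays); dark points, the 354 genes at least 2-fold different in control rats that did not pass the test of region by treatment; orange, the 177 that passed; line, equal differences. In phenytoin rats many orange genes of the hippocampal side lie near 0, while in levetiracetam rats they lie nearer the line, with Acyp2, Klhl2, Cttnbp2 and Arid1b above it.

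Where a gene had several probe sets the probe sets could be set beside each other. Of 111 hippocampal 2-fold genes with more than 1 tested probe set, 72 had another that passed in the same direction and 7 one that passed in the opposite direction. Of 56 cortical ones, 52 and 1 did. Of all tested probe sets, 20.1 percent passed as hippocampal and 22.8 percent as cortical. A gene with several other probe sets has several chances to match, and the share among all such genes was not measured. Among genes described above, another probe set pointed the other way without passing for Grin2a (-0.35), Aqp4 (-0.16), Dkk3 (0.41), Cacng2 (0.31) and Gria4 (0.17). The same held for Arid1b (-0.13) and Nfia (-0.11). The control brainstem, given only as a level, was not always like the lower region: Lamp5 had a mean of 11.13 there, near the cortex, Ptgds 12.50, Pvalb 10.30 and Htr5b 7.59, while Fibcd1 (4.98), Pkp2 (5.00) and Klk8 (4.25) were as low as in the cortex and Stx1a (5.96), Gabrd (5.76) and Vip (5.16) were below both regions.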

How the data were processed

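For each array the deposited table gives linear intensities, 1 to a probe set, which the authors scaled to a common level: with 2 percent trimmed from each end the arrays average 150.04 to 150.06 (seen in the values). The summarization software is not given in the sources used here. Array medians were 49.8 to 61.8 in the control hippocampus and 38.8 to 50.2 in the control cortex, and the number of arrays limits the precision.

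Intensities below 0 were set to 0, transformed as log2(intensity + 16) and quantile normalized over all 62 arrays, using the probe sets complete on all of them to set the target. Control probe sets and the dimmest 40 percent by mean over the 13 arrays were left out. Regions were compared with limma (version 3.58.1, under R 4.3.3; lmFit with trended eBayes), with two-sided p-values adjusted by Benjamini-Hochberg and called under 0.05. The same contrast was fitted in phenytoin rats (6 hippocampal arrays, since number 4 lacks 4799 values, and 7 cortical) and levetiracetam rats (7 and 7), and an F test asked whether it depended on treatment. Spike-in and RNA quality probe sets were compared with exact permutation tests over 1716 splits.

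A gene is represented by its brightest tested probe set with 1 symbol in the platform annotation; 20826 probe sets carry 1 symbol, 436 several and 9780 none, and 20758 matched the RefSeq gene table. Named were the 15 largest non-overlapping differences each way, up to 4 called members of each of 37 lists each way, all hippocampal field factors and all members of lists with under 8 measured genes, as far as they are discussed. The contrast, members and lists were chosen with earlier results of these data known. The labels number the arrays of each group but do not say whether regions share rats, and p-values measure the spread between these arrays.

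Alternatives were deposited values without further normalization, quantile normalization of the 13 arrays alone, a floor of 1, dropping the filter or raising it to 60 percent, a joint fit of the 9 groups, weighted arrays, adjustment for Gapdh integrity, a replicate block, 1 probe set per gene and leaving each array out. Leaving out the 4 arrays of lowest weight or phenytoin hippocampus array 7 was added after seeing the data. The fit was tested on simulated data.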

Additional observations from a re-analysis of the deposited data

Results flagged for a closer look

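In 50 of 420 sets of values, 1 array lay farther from the others of its region than Dixon's critical value allows, a rule by which chance alone would mark about 1 set in 20. Control frontal cortex array 6 was low for Adra1b (6.78), Arpp19 (10.46), Cck (11.94), Cyp11b1 (5.89), Ephb6 (7.44), Homer1 (9.98), Hpca (10.57), Htr2a (6.74), Lamp5 (10.50) and Tox (7.44), and high for Bhlhe22 (10.16), Camk2d (10.64), Cpne7 (8.31), Gabra2 (8.95), Nr2f2 (7.95), Nr4a2 (7.99), Slc13a4 (7.65) and Ttr (8.38). The values are normalized log2 intensities. Without this array the differences of the 18 genes kept their direction and passed the test, with Cpne7 at 3.16 and Lamp5 at -2.57. Control hippocampus array 1 was low for Dcx (4.96), Dpp10 (5.80), Grik4 (7.08), Npy1r (7.09), Nr3c2 (9.44) and Rcan2 (9.12), and high for Folr1 (6.77), Gria4 (8.05) and Jund (11.78). Control frontal cortex array 1 was low for Dynlrb2 (5.42), Lum (4.99) and Ogn (6.84), and high for Klk8 (5.08). Control frontal cortex array 7 was low for Msx1 (5.32), Syt5 (9.01) and Tbr1 (6.15). Control hippocampus array 3 was low for Igfbp2 (6.51) and Rxrg (7.02). Control hippocampus array 2 was low for Nrp2 (7.83), and high for Zeb2 (9.60). Control hippocampus array 5 was high for Ogn (6.61) and Ptgds (11.21). Control hippocampus array 6 was high for Aqp4 (11.54). Control hippocampus array 7 was low for Calml4 (5.81). Control frontal cortex array 5 was low for Calml4 (4.11). Control hippocampus array 4 was low for Scn4b (7.20). Control frontal cortex array 2 was high for Tac1 (7.46). 

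Summed marker intensities stood apart in the same way. Control cortex array 2 summed to 7033 for the striatal markers, against 3855 to 4907 on the other cortical arrays. Control cortex array 6 summed to 1805 for choroid plexus and 11176 for meningeal markers, against at most 1182 and 7477 on the others. Control hippocampus array 5 summed to 3865 for meningeal and 4983 for microglial markers, against at most 2734 and 4264. The part of these arrays' other tissue in each regional difference was not tested.

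For 34 of the named genes the regional difference depended on treatment by the F test across control, phenytoin and levetiracetam rats. The numbers here are the regional difference (log2) in phenytoin rats minus that in control rats, so a negative number is a shift away from the hippocampus. It was below 0 for Acyp2 (-3.22), Klhl2 (-2.49), Cttnbp2 (-2.24), Ptgs2 (-2.10), Arid1b (-1.84), Zeb2 (-1.66), Neto1 (-1.41), Gpr34 (-1.09), Jund (-1.07), Rfx3 (-0.98), Neurod1 (-0.98), Nrp1 (-0.85), Nmb (-0.76), Zbtb20 (-0.74), Scg2 (-0.73), Id4 (-0.70), Cox5a (-0.70), Emx2 (-0.69), Map2 (-0.68), Prox1 (-0.66), Pou3f3 (-0.54), Kcna4 (-0.53), Aqp4 (-0.50), Kcnd3 (-0.39), Lhx2 (-0.28) and Elavl4 (-0.064). It was above 0 for Rasd2 (1.08), Camk2n1 (0.94), Itih3 (0.67), Rasgef1c (0.57), Foxp2 (0.56), Hs3st2 (0.51), Cacng2 (0.35) and Stx1a (0.29). For Elavl4 it was the levetiracetam rats that departed more from control, at a regional difference of -1.66. All these values include phenytoin hippocampus array 7 and are of each gene's brightest probe set, which others of the gene did not always follow. In phenytoin against control rats, a second Map2 probe set differed by 0.97 against 0.39. Likewise 1 of Zbtb20 gave 2.23 against 1.82 and 1 of Kcnd3 0.63 against 0.17. The second probe sets of Rasd2 (-0.27 against -0.96) and Nrp1 (1.48 against 1.68) shifted as the brightest did. Both drug groups are other rats on other arrays, and treatment and set of arrays cannot be told apart.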

How the results depend on the processing

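Counts of passing probe sets kept within 1.5 times their value under each alternative except as follows. With a floor of 1 and no pseudocount, 627 probe sets in place of 398 were at least 2-fold higher in the cortex. With 1 probe set per gene there are fewer probe sets to test, and 4476 passed, 1991 higher in the hippocampus and 2485 in the cortex, 325 and 206 of them at least 2-fold. Leaving out each array in turn gave 7299 to 8042 passing probe sets. As deposited, without quantile normalization, 8225 passed and the share higher in the hippocampus was 54.8 percent in place of 46.8, while the median difference of all probe sets moved from -0.04 to 0.03. Of the 194 genes named, 193 passed, and 185 of them passed in the same direction under every one of up to 24 alternatives run on them. The others were Calb1, Grm5, Ndufb10, Neurod2, Rasgrf2 and Ttr, lost at most in 3 settings, Folr1, lost in 10 of 23, and Alas2, lost in 15 of 23. Without the 4 arrays of lowest weight, 11 pan-neuronal genes in place of 7, 5 astrocyte genes in place of 8 and 6 vascular genes in place of 3 passed as cortical. Lef1, which never passed, turned to -0.072 without the 4 arrays of lowest weight, and the cause was not tested.

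The labels number the arrays of each group, but do not say whether equal numbers in 2 regions are the same rat. Same-numbered hippocampal and cortical arrays deviated together with correlations of -0.11 to 0.24, and 2 of 6 correlated best with their own number. Correlations this weak over 6 pairs cannot decide whether the regions share rats. With the replicate block 7259 probe sets passed, 3468 higher in the hippocampus and 3791 in the cortex (724 and 413 at least 2-fold), 7085 in phenytoin rats against 7222 without the block, and 8863 in levetiracetam rats against 8911.

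Small differences were limited by the number of arrays. Dim probe sets are the least precise, and the dimmest 40 percent were not tested. Region is confounded with the spike-in level and title style of the arrays, and the part of either was not tested.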
